A study of Mus musculus with 12 samples.

Results

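Clozapine was compared with vehicle in the frontal cortex of wild-type mice, across all genes with enough counts to be tested. The 6 libraries were chosen by their labels out of the 12 of the series: vehicle 1, 3 and 4 against clozapine 2, 3 and 5. All came from male C57BL/6 mice, and the clozapine mice received 10 mg/kg, described as chronic treatment. The tissue is labelled prefrontal cortex, and the protocol says bilateral frontal cortex. The other 6 libraries, from mice of the same strain and sex labelled HDAC2(loxP,loxP), CamKIIa-Cre(+,-) and given vehicle or clozapine, entered the fit because they help to estimate the spread between replicates. In that design a Cre recombinase under the CamKIIa promoter, which is active in forebrain excitatory neurons, is meant to delete a floxed Hdac2 gene. Age, days of dosing, the hour of tissue collection and litter were not given in the sources used here. Nothing says that each library is a separate animal, so the p-values rest on a spread between libraries that may be technical.

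Clozapine is an atypical antipsychotic that blocks many receptors, among them serotonin, dopamine, adrenergic, histamine and muscarinic receptors. Several antipsychotics, clozapine included, are known to raise sterol synthesis genes in cultured cells through the transcription factor SREBP2. The endoplasmic reticulum (ER), where secreted and membrane proteins fold, is served by chaperones and disulfide isomerases whose genes are induced together when folding demand grows. Cortical neurons use that route for neurotrophins, neuropeptides and granule proteins, several of which are also induced by neuronal activity.

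The 6 wild-type libraries held 23408372 to 26069440 counts, and levels are given as CPM, the counts of a gene scaled to a common library size by the TMM method. Markers of cortical excitatory neurons were present in every library. The summed level of 6 such genes ranged from 6055 to 6529 CPM over the vehicle libraries and from 5627 to 5810 CPM over the clozapine libraries. These sums did not overlap, but of the 6 genes singly 0 were called, 4 lay below 0 and 2 above (median log2 change -0.05). In 1 of the 6 genes the groups did not overlap, beside 15.6% of all tested genes. Hdac2 read 75.7, 63.4 and 70.0 CPM in vehicle 1, 3 and 4 and 75.5, 72.4 and 73.5 CPM in clozapine 2, 3 and 5 (log2 difference 0.08, edgeR adjusted p = 0.639). In the libraries labelled knockout it read 70.5 to 76.6 CPM, so the counts of the whole gene show no loss there. Such counts from bulk tissue cannot settle whether a part of the gene was deleted in excitatory neurons. The genotype is therefore written as labelled. In a few genes, picked for this order, labelled knockout vehicle 2 and 4 resembled wild-type clozapine rather than wild-type vehicle (values with chromosome 12 below). How many of all tested genes have this order was not counted. Every clozapine minus vehicle value rests on the labels being right, which was not tested. Vehicle 3 stood apart in choroid plexus markers, whose 5 tested genes summed to 60.8 CPM against 3.72 to 7.89 CPM in the other 5 wild-type libraries. The 5 red blood cell genes summed to between 138 and 180.4 CPM in the vehicle libraries, and reached 212, 437 and 219 CPM in clozapine 2, 3 and 5, with no overlap. Their part in the results below was not tested.

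After clozapine 33 genes rose and 108 fell, which is 0.191% and 0.625% of the 17286 genes tested (0.816% together, edgeR's quasi-likelihood test, Benjamini-Hochberg adjusted p under 0.05). The changes were mostly small: 88 of the 141 had a log2 change under 0.5 in size. The median was 0.51 for genes that rose and -0.40 for genes that fell, beside a median of 0.00453 over all tested genes, of which 51.4% lay above 0. In all 141 genes the 3 clozapine libraries lay entirely above or below the 3 vehicle libraries, as they did for 15.6% of all tested genes. Genes that fell were more abundant (median 61.0 CPM) than genes that rose (24.5 CPM) or all genes (15.9 CPM). The GC content of the transcripts had a median of 54.5% for genes that fell, against 46.2% for genes that rose and 50.2% for all genes. The count depended on single libraries: it was 20 without vehicle 3, 36 without clozapine 5, 71 without vehicle 1, 91 without clozapine 2, 89 without labelled knockout clozapine 4 and 219 without labelled knockout vehicle 5. Of the 141 calls 18 held in every fit that left out 1 of the 12 libraries, and no called gene changed sign.

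**Figure D1:**
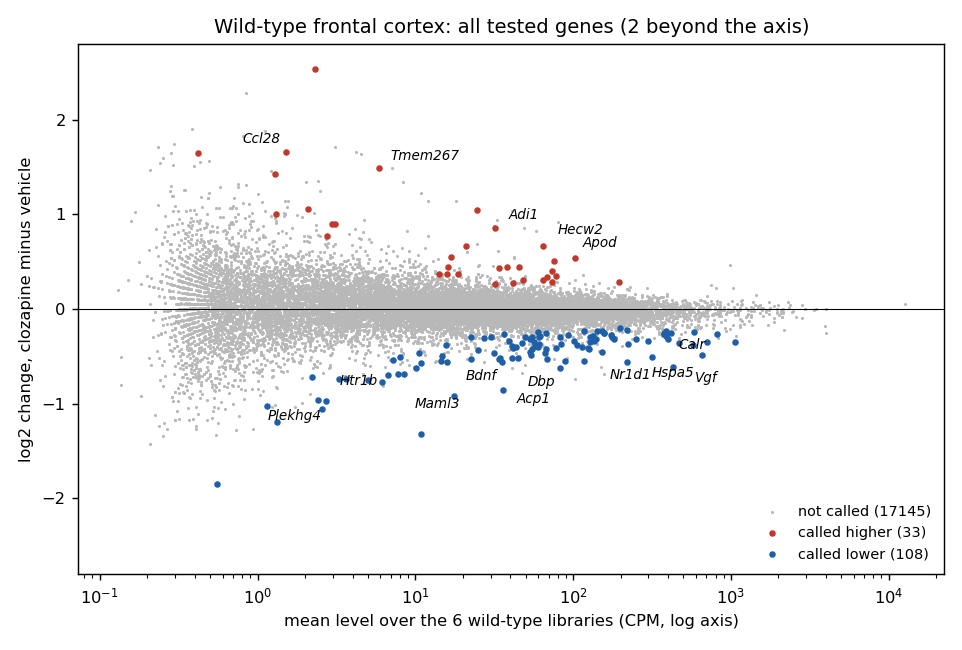
Log2 change with clozapine in wild type (vertical axis) against the mean level over the 6 wild-type libraries in CPM (horizontal log axis), 1 point per tested gene, with 2 genes beyond the vertical range. The 33 genes called higher are red and the 108 called lower are blue, and most called genes above 100 CPM are blue.

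The ER folding genes held the gene with the smallest p of the comparison, Hspa5. Hspa5 (chr2:34771970-34777547, GRCm38), which encodes BiP, the main chaperone of the ER lumen, read 394, 374 and 345 CPM in vehicle 1, 3 and 4 and 265, 265 and 253 CPM in clozapine 2, 3 and 5. Every clozapine library lay below every vehicle library, and the mean fell by 29.8% (log2 change -0.51, SE 0.05, edgeR adjusted p = 0.000358). Calr, the calcium-binding lectin chaperone, fell from 400, 421 and 409 CPM to 348, 347 and 338 CPM (log2 change -0.25, SE 0.05, edgeR adjusted p = 0.0134). Pdia6, a disulfide isomerase that works with BiP, fell from 144, 151 and 134 CPM to 112, 109 and 116 CPM (log2 change -0.35, SE 0.05, edgeR adjusted p = 0.00824). Of these 3 genes, Hspa5 held its call in all 12 fits without 1 library. Calr lost it without vehicle 3 (adjusted p = 0.0865) or clozapine 5 (0.0684), and Pdia6 without vehicle 3 (0.0565).

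Many genes of this kind carry the ER stress element in their promoters, a CCAAT box, 9 bases and then CCACG, which binds NF-Y and ATF6. The stretches below come from RefSeq promoter windows (GRCm38.p6, 250 bases before to 50 after each start) and show the element in 3 genes that fell and in Hsp90b1, which was not called. They read 5′ to 3′ along the gene, and capitals mark the ends of the element, which in Calr and in the second Hsp90b1 stretch runs on the opposite strand. They lie at chr2:34771985-34772083 (plus strand) for Hspa5, chr8:84847035-84847133 (minus) for Calr, chr12:17266451-17266549 (plus) for Pdia6, and chr10:86705598-86705694 and chr10:86705493-86705591 (minus) for Hsp90b1.
Hspa5: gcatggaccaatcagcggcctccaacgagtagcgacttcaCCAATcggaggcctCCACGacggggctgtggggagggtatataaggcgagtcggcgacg
Calr: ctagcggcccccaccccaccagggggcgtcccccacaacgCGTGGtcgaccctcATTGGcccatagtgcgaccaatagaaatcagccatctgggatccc
Pdia6: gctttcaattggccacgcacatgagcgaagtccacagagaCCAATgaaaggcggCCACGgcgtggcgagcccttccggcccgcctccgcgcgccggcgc
Hsp90b1, farther: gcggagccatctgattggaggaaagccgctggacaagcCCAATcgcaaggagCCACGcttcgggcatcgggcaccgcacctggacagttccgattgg
Hsp90b1, nearer: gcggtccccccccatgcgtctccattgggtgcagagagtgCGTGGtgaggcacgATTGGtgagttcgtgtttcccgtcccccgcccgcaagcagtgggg

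The element begins 65 bases before the start in Hspa5, 98 in Pdia6 and 162 in Calr. Searched on both strands, it was found in 21 of the 12150 tested genes with a window (0.173%), 6 of 12 ER chaperones and 1 of 9 disulfide isomerases. Of the 21 genes 3 fell, the same Hspa5, Calr and Pdia6, and 0 rose, and 14 had a log2 change below 0 (median -0.12). Among all 12150 tested genes with a window 91 fell, 20 rose and 6029 lay below 0 (median 0.00109). The 14 of the 21 outside the chaperone and isomerase lists split 7 and 7 around 0, with a median of -0.0043 and 0 called. Of the 7 chaperones and isomerases that fell, 6 have a window, and only 3 of these hold the element. Hsp90b1, the ER member of the HSP90 family, holds a pair of elements, and its means were 259 CPM (vehicle) and 238 CPM (clozapine, log2 difference -0.12, edgeR adjusted p = 0.401). Dnajb11, a co-chaperone of BiP, holds the related ER stress element II (ATTGG, 1 base, CCACG), found in 8 of the 12150 windows (0.0658%). The CCAAT box alone was in 42.2% of windows. These matches are descriptions of letters, not of bound sites.

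Over the list of 15 ER chaperones 5 fell and 1 rose, beside 0.625% and 0.191% of all tested genes, with a median log2 change of -0.12. Besides Hspa5 and Calr, Sdf2l1 fell from 18.5, 17.3 and 16.1 CPM to 13.4, 11.1 and 12.3 CPM (log2 change -0.50, edgeR adjusted p = 0.0385). Manf, a secreted ER-resident trophic protein, fell from 47.7, 46.0 and 38.2 CPM to 35.5, 35.1 and 33.5 CPM (log2 change -0.34, edgeR adjusted p = 0.0436). Dnajb11 fell from 71.7, 69.7 and 63.3 CPM to 56.8, 52.8 and 58.1 CPM (log2 change -0.29, edgeR adjusted p = 0.0346). In these 3 genes the groups did not overlap, as in every called gene. Sil1, the nucleotide exchange factor that releases ADP from BiP, went the other way, from 12.4, 14.8 and 14.4 CPM to 18.3, 17.1 and 18.3 CPM (log2 change 0.37, edgeR adjusted p = 0.0351). Creld2 and Hyou1 had the same direction as Hspa5 without passing (log2 differences -0.37 and -0.26, edgeR adjusted p = 0.105 and 0.0760). Ppib, Dnajc10, Cdnf and Dnajb9 lay between 0.02 and 0.10. Summed over the list, levels were 1862, 1889.6 and 1789 CPM in the wild-type vehicle libraries and lower, at 1575, 1598 and 1597 CPM, after clozapine. In the labelled knockout the sums lay between 1446 and 1519 CPM with vehicle and between 1471 and 1480 CPM with clozapine. All labelled knockout sums, with vehicle as well, were thus below wild-type clozapine, and the reason was not tested. The count of chaperones that fell was 1 without vehicle 3 or clozapine 5, 2 without vehicle 1 or clozapine 3, and 3 without clozapine 2, labelled knockout vehicle 2 or labelled knockout clozapine 4. Over the 12 fits without 1 library, Sdf2l1 was called in 7, Dnajb11 and Sil1 in 6 and Manf in 3, and the last 3 were not called in a fit of the 6 wild-type libraries alone, nor Manf with limma-voom.

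Of 12 disulfide isomerases and oxidases 2 fell and 0 rose, beside 0.625% lower and 0.191% higher among all tested genes (median log2 change -0.07). Besides Pdia6, Pdia3, which folds glycoproteins together with Calr, fell from 216, 214 and 206 CPM to 184, 185 and 185 CPM (log2 change -0.20, SE 0.04, edgeR adjusted p = 0.0457). The Pdia3 groups did not overlap, but the call held in only 2 of the 12 fits without 1 library, and adjusted p lay between 0.0540 and 0.153 without each of the 6 wild-type libraries. The isomerase count was 0 without vehicle 3 and 1 without vehicle 1, any wild-type clozapine library, labelled knockout vehicle 2 or any labelled knockout clozapine library. Pdia4 read 46.4, 44.4 and 37.6 CPM against 32.3, 33.7 and 34.0 CPM, just outside the threshold (edgeR adjusted p = 0.0503). Among 17 sensors and transcription factors of ER stress 0 passed, with a median of 0.00. Xbp1, a transcription factor of this response, read 105, 102 and 89.5 CPM against 83.7, 89.2 and 84.7 CPM (log2 difference -0.21, edgeR adjusted p = 0.155). Ddit3, the stress gene also known as CHOP, read 29.9, 27.8 and 26.1 CPM against 30.1, 26.5 and 23.8 CPM, which overlap. Among 29 genes of ER translocation, glycosylation and degradation 0 passed (median -0.06), and 5 had clozapine libraries all below vehicle, beside 8.23% of all genes. Among 15 cytosolic heat shock genes 0 passed (median 0.01).

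**Figure D2:**
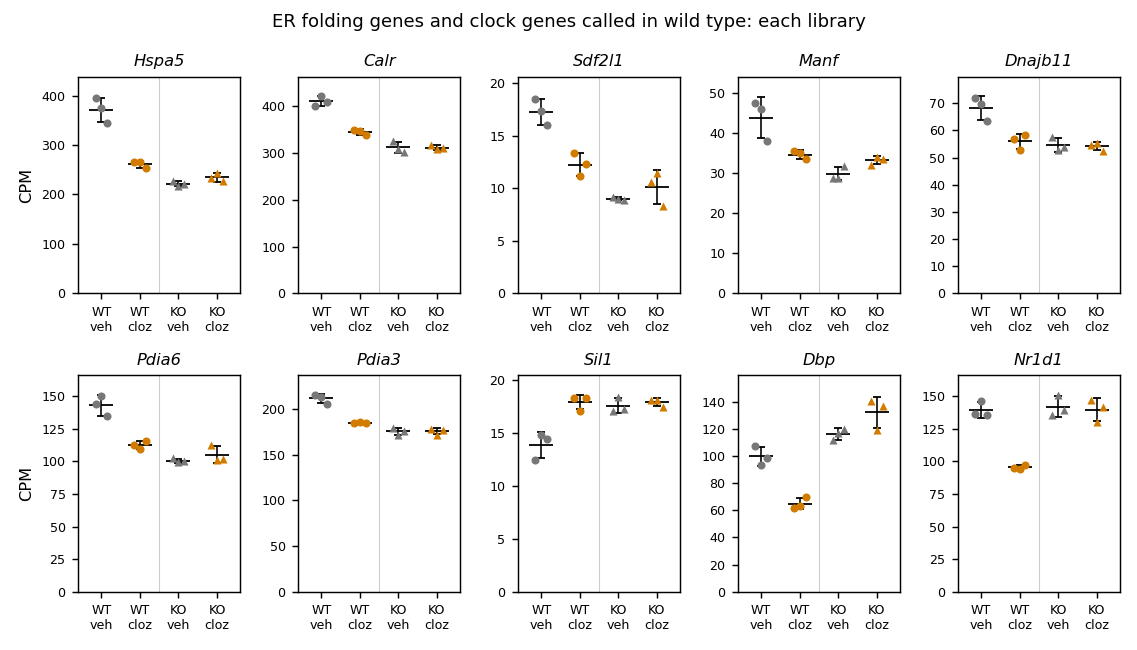
Level in CPM (vertical axes from 0) of 8 ER folding genes and 2 clock genes in each of the 12 libraries: circles are wild type, triangles labelled knockout, grey vehicle and orange clozapine, with the mean and SD of 3 libraries in black. Hspa5, Dbp and Nr1d1 lie lower in all 3 wild-type clozapine libraries than in the vehicle libraries, and Sil1 lies higher.

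Of 28 genes of cholesterol synthesis and its control 3 rose and 0 fell (0.191% and 0.625% of all genes), 24 lay above 0, and the median log2 change was 0.18. In 14 of the 28 every clozapine library lay above every vehicle library, beside 7.34% of all tested genes. Of the 3 that rose, a sterol carrier and a feedback inhibitor, both targets of SREBP2, are described here. Stard4, which carries cholesterol between membranes, rose from 31.1, 28.5 and 26.8 CPM to 34.0, 40.6 and 41.8 CPM (log2 change 0.43, SE 0.09, edgeR adjusted p = 0.0387). Insig1, which holds back SREBP processing, rose from 58.8, 62.5 and 60.8 CPM to 78.9, 67.4 and 83.2 CPM (log2 change 0.33, SE 0.07, edgeR adjusted p = 0.0385). The enzymes of the pathway did not pass singly: Hmgcs1 read 218, 194 and 217 CPM against 217, 249.6 and 254 CPM, with overlap (log2 difference 0.20, edgeR adjusted p = 0.187). Cyp51 read 60.5, 56.5 and 58.0 CPM against 62.3, 70.4 and 68.8 CPM, without overlap (log2 difference 0.20, edgeR adjusted p = 0.129). Srebf2 itself had a log2 difference of 0.06. Of the 28 genes 0 were called without vehicle 3 or clozapine 5, and 1 without vehicle 1, labelled knockout vehicle 2 or labelled knockout clozapine 4. The Stard4 and Insig1 calls each held in 5 of the 12 fits without 1 library, and Insig1 was not called in a fit of the 6 wild-type libraries alone. Summed levels lay between 1473 and 1546 CPM for wild-type vehicle and between 1590.3 and 1735 CPM for wild-type clozapine. In the labelled knockout they lay between 1685 and 1751 CPM with vehicle and between 1601 and 1740 CPM with clozapine. Every other library of the series thus lay above the wild-type vehicle libraries, and the reason was not tested.

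Apod was the lipid gene with the clearest separation. It encodes a lipid-binding apolipoprotein made by glia and perivascular cells, and read 78.6, 88.0 and 85.9 CPM with vehicle and 127, 119 and 122 CPM with clozapine. The groups were far apart relative to their spread (log2 change 0.54, SE 0.07, edgeR adjusted p = 0.0023), and the call held without each of the 12 libraries. Of the other 13 lipid transport genes 0 passed: Apoe had a log2 difference of 0.05, Abca1 0.19 and Lcat 0.21. Of 12 genes of fatty acid synthesis 0 passed (median 0.04), and Srebf1 read 51.6, 49.0 and 52.9 CPM against 62.7, 58.5 and 58.7 CPM (log2 difference 0.23, edgeR adjusted p = 0.0967). Meningeal fibroblasts also express Apod: of 10 markers of meningeal and vascular fibroblasts 9 lay above 0 (median 0.36), and their sum lay between 153 and 181 CPM for vehicle and between 142 and 213 CPM for clozapine. Oligodendrocyte markers, 11 genes with a median of 0.13, summed to 1761 to 2084 CPM and 1860.2 to 2308 CPM. Their part in the Apod result was not tested. In bulk tissue, more cells of a type and more RNA per cell cannot be told apart.

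Among 22 genes of the circadian clock 2 fell and 0 rose, beside 0.625% lower and 0.191% higher among all tested genes, with a median log2 change of -0.05. Dbp, an output transcription factor of the clock, read 107, 93.4 and 98.6 CPM with vehicle and 61.5, 63.4 and 69.5 CPM with clozapine, so that the groups did not overlap. Its mean fell by 35.1% (log2 change -0.62, SE 0.07, edgeR adjusted p = 0.000587). Nr1d1, the REV-ERB alpha repressor, fell from 136, 146 and 135 CPM to 94.8, 93.8 and 97.5 CPM (log2 change -0.54, SE 0.06, edgeR adjusted p = 0.000358). Both calls held without each of the 12 libraries. Of the 22 clock genes 6 lay above 0, among them Arntl, a core activator, with a log2 difference of 0.13, and Nfil3, a repressor that competes with Dbp, with 0.40 (edgeR adjusted p = 0.150 for Nfil3). Ciart read 15.3, 16.5 and 16.6 CPM against 11.3, 10.2 and 11.5 CPM without passing (edgeR adjusted p = 0.117). Per2 read 52.1, 58.3 and 49.2 CPM against 24.4, 49.5 and 39.2 CPM, which overlap. The hour of collection was not given, so a shift in time between the groups and an effect of the drug cannot be told apart for these genes.

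**Figure D3:**
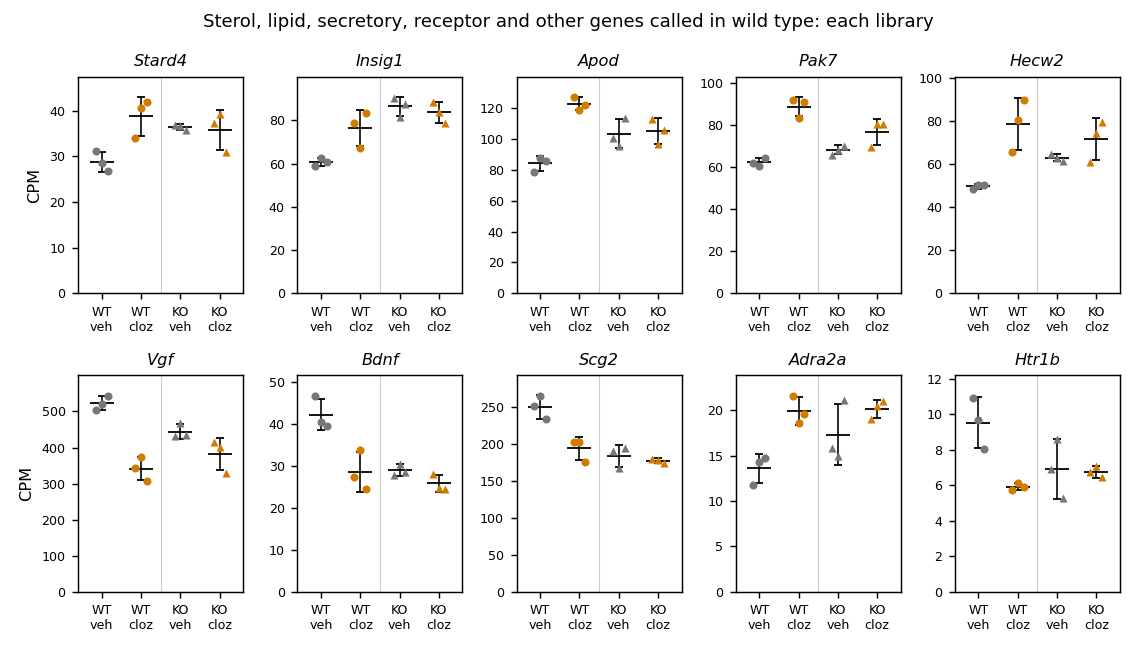
Level in CPM (vertical axes from 0) of 6 genes that rose in wild type (Stard4, Insig1, Apod, Pak7, Hecw2 and Adra2a) and 4 that fell (Vgf, Bdnf, Scg2 and Htr1b), in each of the 12 libraries (symbols as for the ER genes: circles wild type, triangles labelled knockout, grey vehicle, orange clozapine, bars mean and SD). Apod and Pak7 separate the wild-type groups by more than their spread, and Vgf is lower in all 3 clozapine libraries.

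A few genes of secreted neuronal products were lower after clozapine. Vgf, a granule protein precursor induced by neurotrophins, fell from 505, 522 and 544 CPM to 344, 373 and 308 CPM (log2 change -0.62, SE 0.08, edgeR adjusted p = 0.00282) and held its call without each of the 12 libraries. Bdnf, the brain-derived neurotrophic factor, fell from 46.7, 40.6 and 39.7 CPM to 27.4, 33.9 and 24.6 CPM (log2 change -0.56, SE 0.10, edgeR adjusted p = 0.0154). Scg2, a granule protein, fell from 251, 265 and 233 CPM to 203, 203 and 175 CPM (log2 change -0.37, SE 0.07, edgeR adjusted p = 0.0173). None of these 3 genes overlapped between the groups, as was so for every called gene. The Bdnf call was lost without vehicle 1 (adjusted p = 0.0656), vehicle 3 (0.0641), clozapine 2 (0.0622) or clozapine 5 (0.0684) and in a fit of the 6 wild-type libraries alone. The Scg2 call was lost without vehicle 1 (0.0684), vehicle 3 (0.110) or clozapine 5 (0.0910).

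Of 19 tested neuropeptide and granule genes 2 fell and 0 rose, beside 0.625% lower and 0.191% higher among all tested genes (median -0.07), and 1 remained without vehicle 1, vehicle 3 or clozapine 5. Ptprn, a granule membrane protein chosen after its values were seen, fell from 745, 809 and 813 CPM to 620.5, 642 and 595 CPM (log2 change -0.35, edgeR adjusted p = 0.00441). Among 23 activity-induced genes 1 fell, Bdnf, and 0 rose, with the same background (median -0.05, but 0.02 without vehicle 4). That count was 0 without vehicle 1, vehicle 3, clozapine 2 or clozapine 5 and 3 without clozapine 3. Nptx2 read 135, 128 and 124 CPM against 66.1, 95.4 and 70.8 CPM (log2 difference -0.73, edgeR adjusted p = 0.0900). Egr3 read 188, 165 and 189.6 CPM against 101, 149 and 105 CPM (edgeR adjusted p = 0.200). In both genes clozapine 3 was the closest to vehicle, and it did not overlap with it. Fos, Arc, Egr1 and Nr4a1 overlapped between the groups, with log2 differences of 0.23, -0.07, -0.04 and 0.00. The list summed to between 1844 and 1909 CPM for wild-type vehicle and between 1549 and 1624 CPM for wild-type clozapine. In the labelled knockout the list summed to between 1130 and 1351 CPM with vehicle and between 1134 and 1617 CPM with clozapine. Labelled knockout vehicle thus lay below wild-type clozapine, and the reason was not tested.

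A microRNA locus moved in the same direction. Reads over Mir212 (chr11:75173388-75173478) were 3.70, 2.77 and 3.13 CPM against 1.30, 2.03 and 1.59 CPM after clozapine, without overlap (log2 change -0.96, SE 0.19, edgeR adjusted p = 0.0296). Mir132, its neighbour, read 1.74, 1.77 and 1.51 CPM against 0.757, 0.844 and 0.836 CPM without passing (edgeR adjusted p = 0.116). The host transcript 1700016P03Rik read 5.92, 5.88 and 4.88 CPM against 3.15, 3.38 and 4.72 CPM (edgeR adjusted p = 0.150). These mRNA libraries count the precursor locus, not mature microRNA, and reads of the overlapping host and the 2 hairpins are not told apart with certainty. The Mir212 call was lost without vehicle 1 (adjusted p = 0.114), vehicle 3 (0.0626), vehicle 4 (0.0601), clozapine 2 (0.104) or clozapine 5 (0.117), and in a fit of the 6 wild-type libraries alone. Both loci belong to a CREB-induced cluster in neurons. Their 3p mature forms, from RefSeq (GRCm38.p6), are shown because they share the seed, bases 2 to 8, in capitals.
miR-212-3p: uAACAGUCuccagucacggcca
miR-132-3p: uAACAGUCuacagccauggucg

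Of 12 tested serotonin receptor genes 1 fell and 0 rose, beside 0.625% lower and 0.191% higher among all tested genes (median 0.05). Htr1b, an inhibitory autoreceptor and heteroreceptor, fell from 10.9, 9.65 and 8.01 CPM to 5.72, 6.12 and 5.89 CPM (log2 change -0.69, SE 0.15, edgeR adjusted p = 0.0441). Htr2a, a main cortical target of the drug, read 17.7, 18.9 and 22.4 CPM against 17.7, 18.6 and 18.3 CPM, which overlap. Htr2c read 6.14, 5.46 and 6.90 CPM against 9.41, 8.65 and 9.15 CPM, just outside the threshold (log2 difference 0.56, edgeR adjusted p = 0.0543). Of 11 tested dopamine and adrenergic receptor genes 1 rose and 1 fell, beside 0.816% called in either direction among all genes, and both are alpha-2 receptors. Adra2a rose from 11.8, 14.3 and 14.8 CPM to 21.6, 18.6 and 19.6 CPM (log2 change 0.54, SE 0.12, edgeR adjusted p = 0.0457). Adra2c fell from 32.2, 29.6 and 28.7 CPM to 24.4, 25.0 and 24.0 CPM (log2 change -0.30, SE 0.06, edgeR adjusted p = 0.0385). None of these 3 calls was firm: Htr1b held in 3, Adra2a in 2 and Adra2c in 4 of the 12 fits without 1 library. Without vehicle 1, vehicle 3, clozapine 2, clozapine 3 or clozapine 5 adjusted p was 0.0591 to 0.170 in all 3, and Adra2c was also lost in a fit of the 6 wild-type libraries alone and with a correction for length and GC content. The Htr1b and Adra2a calls were lost with limma-voom.

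Drd2, the classic antipsychotic target, was close to the limit of detection at 0.305, 1.61 and 0.674 CPM against 0.714, 0.338 and 0.460 CPM. Of 7 muscarinic and histamine receptor genes 0 passed (median -0.15), and in 4 of them the clozapine libraries all lay below vehicle, beside 8.23% of all genes. Chrm1 read 220.3, 213 and 236 CPM against 203, 202 and 200.4 CPM (log2 difference -0.15, edgeR adjusted p = 0.255), and Hrh1 22.8, 22.6 and 23.9 CPM against 15.3, 20.1 and 19.6 CPM (log2 difference -0.33, edgeR adjusted p = 0.127). Of 7 metabotropic glutamate receptor genes 0 passed: Grm2 read 68.6, 67.5 and 77.5 CPM against 81.2, 65.8 and 79.8 CPM, which overlap. No member passed among 11 histone deacetylases (median -0.01), 13 NF-kB genes (-0.04), 16 GABA receptor and transporter genes (-0.03), 17 potassium and sodium channel genes (0.02), 14 glucocorticoid-responsive genes (0.01) or 13 mitochondrially encoded genes (0.02). Of 28 excitatory synapse genes 0 passed (median -0.05). Among these, Dlg4, which encodes PSD-95, had means of 975.2 and 851 CPM (log2 difference -0.20, edgeR adjusted p = 0.0994).

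**Figure D4:**
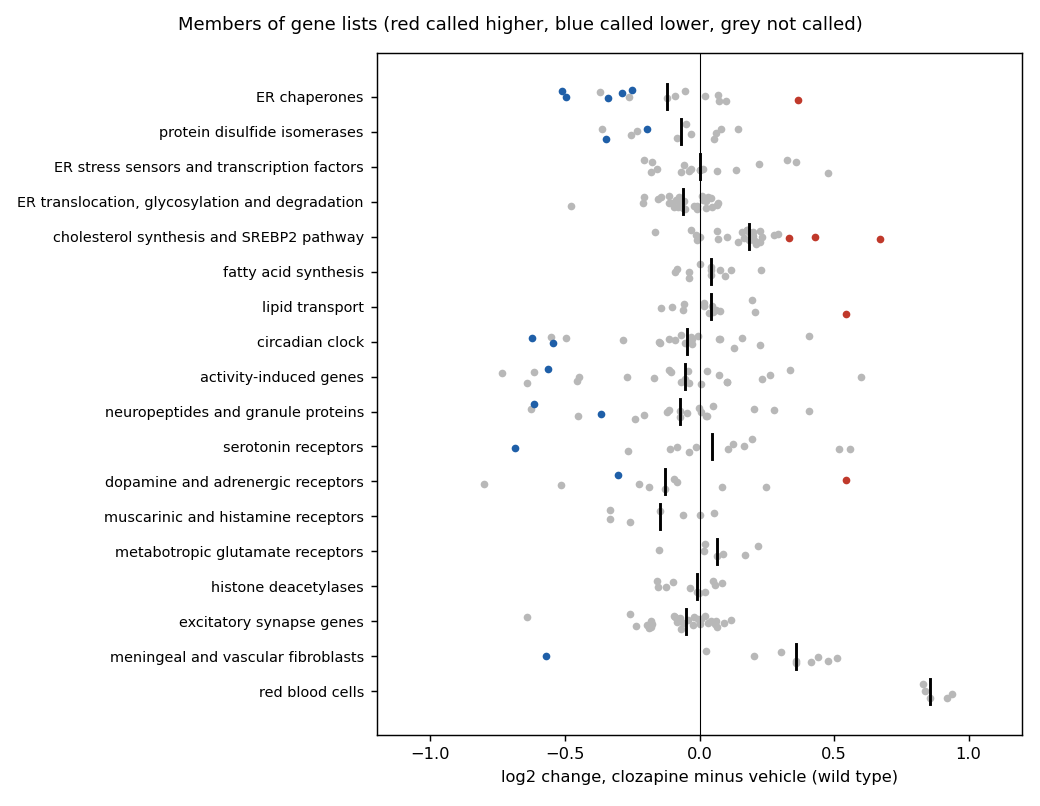
Log2 change with clozapine in wild type (horizontal axis) of every tested member of 18 gene lists, 1 point per gene, with the list's median as a black bar. Blue points, genes called lower, stand among ER chaperones and isomerases, and red points, genes called higher, among sterol genes, while the 5 red blood cell genes, with a median of 0.86, hold no called gene.

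Several of the most stable calls lay outside these lists. Pak7, a neuronal p21-activated kinase, rose from 61.9, 60.5 and 64.3 CPM to 91.8, 83.2 and 90.9 CPM (log2 change 0.51, SE 0.06, edgeR adjusted p = 0.00114). Mical2, a monooxygenase that disassembles actin, fell from 725, 828 and 758 CPM to 587, 545 and 514 CPM (log2 change -0.49, SE 0.07, edgeR adjusted p = 0.00282). Fmnl1, a formin that assembles actin, fell from 279.96, 274 and 234 CPM to 170.4, 199 and 166 CPM (log2 change -0.56, SE 0.08, edgeR adjusted p = 0.00373). All 3 act on the cytoskeleton, but no list of such genes was counted. The groups did not overlap in any of the 3, which was a condition of naming and held for all 141 called genes. S100a6, a small calcium-binding protein, fell from 17.9, 17.03 and 16.97 CPM to 12.2, 11.3 and 12.04 CPM (log2 change -0.55, SE 0.07, edgeR adjusted p = 0.0023). Slc9a5, a neuronal sodium-proton exchanger, fell from 61.4, 67.8 and 65.4 CPM to 47.7, 51.5 and 49.6 CPM (log2 change -0.39, SE 0.05, edgeR adjusted p = 0.00309). Smad3, the signal transducer of TGF-beta and activin receptors, was chosen after its values were seen and fell from 112, 113 and 92.9 CPM to 64.8, 78.3 and 74.7 CPM (log2 change -0.55, edgeR adjusted p = 0.00373). Each of these 6 genes was called without each of the 12 libraries.

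Several of the largest changes among named genes were at low expression. Not all were: Hecw2 averaged 64.3 CPM, beside a median of 15.9 CPM over all genes. Among the genes that rose under the naming rule, Ccl28, an epithelial chemokine, was at 0.609, 0.807 and 0.754 CPM in the vehicle libraries and 1.39, 2.87 and 2.67 CPM after clozapine (log2 change 1.66, SE 0.28, edgeR adjusted p = 0.0101). Its neighbour Tmem267 on chromosome 13 rose from 3.53, 2.38 and 3.41 CPM to 6.22, 11.2 and 8.73 CPM (log2 change 1.49, SE 0.24, edgeR adjusted p = 0.0124). In both genes the lowest clozapine library was clozapine 2. In the labelled knockout Ccl28 read 2.24, 2.28 and 2.39 CPM with vehicle and 1.36, 2.24 and 1.53 CPM with clozapine. Tmem267 read 7.47, 4.40 and 6.37 CPM against 4.45, 5.50 and 5.01 CPM there. In both genes every labelled knockout library lay above wild-type vehicle. Both calls were lost without vehicle 3 (adjusted p = 0.0565 for Ccl28 and 0.0775 for Tmem267) or clozapine 5 (0.0621 and 0.0655). Hecw2, a ubiquitin ligase, rose from 48.3, 50.6 and 50.3 CPM to 65.8, 80.5 and 90.0 CPM (log2 change 0.66, SE 0.11, edgeR adjusted p = 0.0134), and lost its call without vehicle 1 (0.0777) or vehicle 3 (0.0824). Among the genes that fell, Plekhg4, an exchange factor of small GTPases, went from 3.92, 3.69 and 2.82 CPM to 1.68, 1.77 and 1.55 CPM (log2 change -1.06, SE 0.18, edgeR adjusted p = 0.0115, but 0.0707 without vehicle 3 and 0.0677 without clozapine 5). Maml3, a co-activator of Notch signalling, fell from 21.9, 24.3 and 23.1 CPM to 15.5, 12.1 and 9.15 CPM (log2 change -0.91, SE 0.17, edgeR adjusted p = 0.0346), a call that held in 5 of the 12 fits and was lost without a low-count filter and in the fit of the 6 wild-type libraries alone. Pth2r, Bace2, Glp2r and Myh3 also rose and Car12, Slc29a4, Cenpa and Epha8 fell, all under 11 CPM in mean, with calls that held in 2 to 10 of the 12 fits. In the fit of the 6 wild-type libraries alone Pth2r, Bace2, Glp2r, Myh3 and Epha8 were not called.

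Called genes were not spread evenly along the genome. Chromosome 12 held 15 called genes among 597 tested (2.51%), beside 0.816% of all genes. Within its first 35 Mb, a limit set after the values were seen, 9 of 140 tested genes were called (6.43%), 8 of them lower, against 6 of 457 beyond it (1.31%). Adi1 (chr12:28675231-28682175), an enzyme of methionine salvage, read 25.03, 21.9 and 21.02 CPM in the vehicle libraries and 34.3, 46.1 and 42.3 CPM after clozapine (log2 change 0.85, SE 0.13, edgeR adjusted p = 0.0128). Acp1 (chr12:30893326-30911589), a low-molecular-weight phosphatase, fell from 47.1, 44.98 and 45.9 CPM to 31.8, 21.6 and 22.8 CPM (log2 change -0.86, SE 0.14, edgeR adjusted p = 0.0203). The transcribed pseudogene 3110053B16Rik, chosen after its values were seen, fell from 14.6, 15.6 and 16.6 CPM to 6.81, 6.37 and 5.60 CPM (log2 change -1.32, edgeR adjusted p = 0.00263). Pdia6, Kcnf1, Asap2 and Pxdn lie in the same stretch.

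The order of these genes' levels was different in the labelled knockout libraries. Adi1 read 33.6, 28.5 and 23.1 CPM in labelled knockout vehicle 2, 4 and 5 and 19.5, 21.7 and 20.2 CPM in clozapine 3, 4 and 5. There the vehicle libraries 2 and 4 were the high ones. In 3110053B16Rik the same vehicle libraries 2 and 4 read 7.67 and 8.30 CPM, vehicle 5 read 13.1 CPM, and the labelled knockout clozapine libraries read 16.03, 15.02 and 16.8 CPM. A pair of pseudogenes elsewhere, also chosen after their values were seen, had the same order: Gm7993 on chromosome 5 went from 0.740, 0.653 and 0.635 CPM to 4.37, 3.42 and 4.01 CPM in wild type (log2 change 2.54, edgeR adjusted p = 0.0416, a call that held in 3 of the 12 fits and was lost with limma-voom and without a low-count filter). In the labelled knockout Gm7993 read 4.45, 3.86 and 1.04 CPM with vehicle and 1.11, 0.677 and 0.538 CPM with clozapine. Gm6472 on the X chromosome read 17.3, 14.7 and 15.98 CPM against 27.2, 37.0 and 34.6 CPM in wild type, then 28.2, 26.5 and 18.8 CPM against 16.7, 16.7 and 15.2 CPM in the labelled knockout. In all of these genes, and in Acp1 at 36.5 and 35.01 CPM, labelled knockout vehicle 2 and 4 lay on the side of wild-type clozapine, outside the range of wild-type vehicle and labelled knockout clozapine. Whether every library has the genotype, treatment and genetic background of its label was not tested, so for these genes a difference of that kind and the drug cannot be told apart. Reads of processed pseudogenes may belong to near-identical copies, so these levels are uncertain. The genes were set side by side because they share this order, and how many of all tested genes do was not counted. Adi1 lost its call without vehicle 3 (adjusted p = 0.0865) or clozapine 5 (0.0745), and Acp1 without vehicle 1 (0.0854), vehicle 3 (0.0865), vehicle 4 (0.0592) or clozapine 5 (0.0985), and without a low-count filter.

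Among markers of cortical layers 1 gene passed, beside 0.816% of all tested genes. Cux2, a transcription factor of upper-layer neurons, fell from 208, 201 and 175 CPM to 169, 152 and 155 CPM (log2 change -0.29, SE 0.06, edgeR adjusted p = 0.0417), out of 6 upper-layer markers, whose median log2 change was -0.02. The Cux2 call held in 4 of the 12 fits and was lost without vehicle 1, vehicle 3, clozapine 3 or clozapine 5 (adjusted p between 0.105 and 0.164) and in the fit of the 6 wild-type libraries alone, and with the correction for length and GC content. All 8 deep-layer markers lay above 0 (median 0.13) and 0 passed. Among them, Rprm read 16.2, 22.7 and 27.9 CPM against 45.9, 42.0 and 35.2 CPM (log2 difference 0.88, edgeR adjusted p = 0.0558), and Foxp2 read 2.35, 7.996 and 6.58 CPM against 8.41, 11.1 and 6.77 CPM. Summed deep-layer levels were 115, 169.9 and 182 CPM for vehicle, lowest in vehicle 1, and 164, 221 and 169 CPM for clozapine. Whether the layers sampled play a part in these results was not tested. Eln, the elastin gene of vessels and meninges, fell from 12.7, 13.95 and 12.4 CPM to 10.3, 7.39 and 8.61 CPM (log2 change -0.57, SE 0.11, edgeR adjusted p = 0.0173), while the other 9 fibroblast markers lay above 0. Of the 10 meningeal and vascular fibroblast markers 1 was thus called, beside 0.816% of all tested genes. The Eln call was lost without vehicle 3 (adjusted p = 0.110), clozapine 3 (0.0538) or clozapine 5 (0.0816) and in the fit of the 6 wild-type libraries alone. No marker passed for astrocytes, oligodendrocytes, microglia, endothelial cells or interneurons, with medians of -0.03, 0.13, -0.03, -0.08 and 0.00.

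The genes called in wild type were set beside the clozapine effect in the labelled knockout, which comes from the other 6 libraries. There 4 genes were called (0.0231%), none of them among the 141. Of the 33 genes that rose in wild type 22 lay above 0 in the labelled knockout (66.7%, against 49.3% of all genes), with a median of 0.05. Of the 108 that fell 37 lay below 0 (34.3%, against 50.7% of all genes), with a median of 0.04. The difference between the effects was called for 113 genes in all (0.654%), and for 56 of the 141 (8 that rose and 48 that fell). Wild-type values enter both tests, so this overlap is a description.

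Hspa5 read 227, 218 and 220.3 CPM in labelled knockout vehicle and 233, 244 and 226 CPM in labelled knockout clozapine, all below wild-type clozapine. Its effects differed by 0.59 in log2 units (SE 0.08, edgeR adjusted p = 0.00195). Dbp read 112, 117 and 119.6 CPM against 140.3, 119 and 137 CPM in the labelled knockout, and its effects differed by 0.81 (SE 0.10, edgeR adjusted p = 0.00195). For Vgf, which read 433, 467 and 433 CPM against 415, 401 and 330.2 CPM there, the difference of 0.40 did not pass (edgeR adjusted p = 0.138). The count of 113 differences was 54 without vehicle 1, 19 without vehicle 3 and 23 without clozapine 5 of wild type. It was 54, 181 and 40 without labelled knockout vehicle 2, 4 and 5, and 21, 24 and 13 without labelled knockout clozapine 3, 4 and 5.

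**Figure D5:**
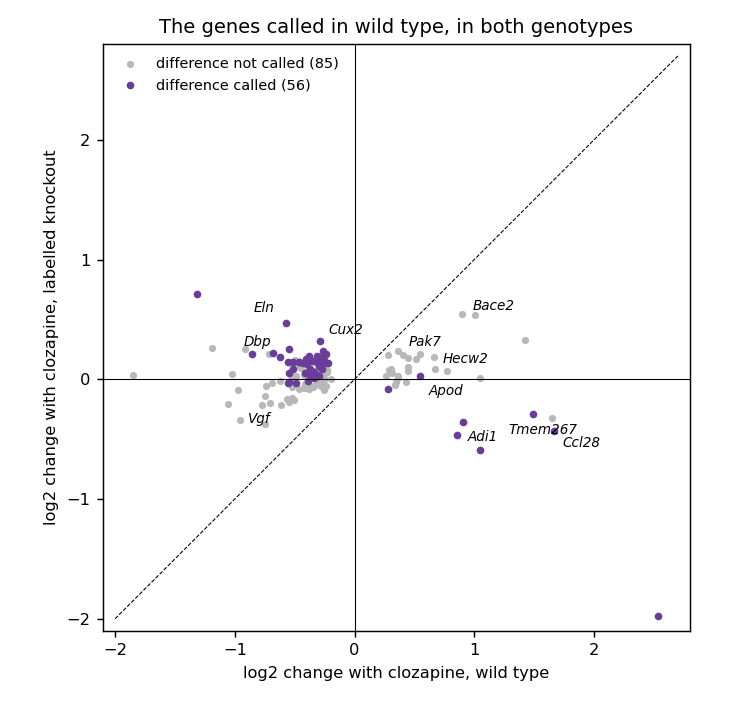
Log2 change with clozapine in the labelled knockout (vertical axis) against that in wild type (horizontal axis) for the 141 genes called in wild type, with purple for the 56 whose difference between genotypes was called and the dashed line marking equal change. Most points lie near 0 on the vertical axis and away from the dashed line.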

How the data were processed

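The deposited table holds estimated counts per gene for 12 libraries of frontal cortex mRNA, made by the authors with STAR 2.5.1b on GRCm38 and featureCounts, per the submitters' processing notes. Between 7.13% and 7.64% of the values of a library were not whole, so they were rounded for the tests, where the planned design had assumed whole counts. The handling of strand and of reads that fit several genes is not given in the sources used here. Total counts were 23408372 to 28069638 per library. Gene names, positions and exonic length came from the mouse GENCODE release M21 (GRCm38, 46574 of 47069 identifiers named). GC content was taken over all transcript sequences of a gene in that release. Promoter and microRNA sequences came from RefSeq.

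Genes kept by filterByExpr (17286 of 47069, over 99.9% of counts) were fitted in edgeR 4.0.16 (R 4.3.3) over the 4 groups of 3 libraries with TMM scaling and a robust quasi-likelihood test, with Benjamini-Hochberg adjustment over all tested genes and a threshold of 0.05. Standard errors are of log2 changes. On simulated counts with 100 genes at each size, 46% of log2 changes of 0.35 and 72% of 0.5 were recovered, with 8 false calls among 126. Changes were placed only in genes with a mean of at least 1 CPM. The counts were drawn independently, without effects that many genes of a library share, so these shares may not hold for the real libraries. Replicates varied by more than counting error, and no 2 libraries of the same group agreed within it.

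Named genes are Hdac2, up to 14 genes in each direction with the largest called change at a mean of at least 1 CPM without overlap of groups (predicted genes, clone names and pseudogenes left out), the 10 of smallest p, and up to 4 called members of each list or the 2 of smallest p. Every other gene named, list members such as Sdf2l1, Manf, Nptx2 and Htr2c included, was chosen after its values were seen. The members and the 22 pathway and 18 cell lists were chosen with earlier results of these data known. Markers of ependymal cells and of neurons of striatum, hippocampus, olfactory bulb and thalamus were also listed, and 0 of their 21 tested genes passed. Alternatives were DESeq2 1.42.0, limma-voom 3.58.1, RLE size factors, other filters, a threshold of 0.10, the 6 wild-type libraries alone, each library left out, a replicate block, unrounded counts and a correction for length and GC content. Some members of the lists are counted with their list but are not reported here.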

Additional observations from a re-analysis of the deposited data

Results flagged for a closer look

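For 17 of the named genes the effect of clozapine differed between labelled knockout and wild type by the test of the difference itself (edgeR adjusted p under 0.05). Each value is a log2 effect in the labelled knockout from which the wild-type effect was subtracted. These genes were named for their wild-type change, which is part of the difference, and no direction here is independent of that choice. The difference was positive for genes that fell in wild type: 0.81 for Dbp, 0.59 for Hspa5, 0.52 for Nr1d1, 0.41 for Pdia6, 1.04 for Eln, 0.61 for Cux2, 0.90 for Epha8, 0.37 for Slc9a5, 0.45 for Mical2, 0.52 for Fmnl1, 1.07 for Acp1 and 0.44 for Adra2c. It was negative for genes that rose in wild type: -1.32 for Adi1, -2.09 for Ccl28, -1.78 for Tmem267, -1.26 for Myh3 and -0.52 for Apod.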

How the results depend on the processing

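The 141 calls in wild type became 285 with DESeq2, 304 without a low-count filter, 260 at a threshold of 0.10, 92 in a fit of the 6 wild-type libraries, 18 with the replicate block, and 20 to 219 when 1 library was left out. The 33 genes higher became 61, 77, 73, 15, 2, and 2 to 42 in the same order, and 50 with the length and GC correction. The 108 lower became 224 with DESeq2, 227 without a filter, 187 at 0.10, 16 with the replicate block, and 18 to 177 without 1 library. The 113 called differences between genotypes became 354 with DESeq2, 302 without a filter, 258 at 0.10, 12 with the replicate block, 68 with the length and GC correction, and 13 to 181 without 1 library. Of the 141 calls 14 held in all 9 other alternatives, and 10 of them also without each library: Hspa5, Dbp, Nr1d1, Vgf, Pak7, Mical2, S100a6, Slc9a5, Ptprn and Smad3. The median labelled knockout change of the 108 genes was 0.0227 to 0.0826 without 1 library, and that of the 33 genes 0.0157 to 0.0771. The cause of these shifts was not tested. With 3 libraries a group, a gene that was not called may still have changed. The wild-type groups share only the number 3, and the labels tie no number to a litter or day, so the numbers were not taken as pairs. Deviations of same-numbered libraries correlated between -0.13 and 0.34, beside -0.40 and 0.34 for libraries of different number. These wide ranges overlap and cannot decide whether the numbers are pairs.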
